A study of Mus musculus with 16 samples.

Results

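The 10 genes described here encode isoenzymes of glycolysis other than enolase, namely the hexokinases Hk1 and Hk2, the phosphofructokinases Pfkl, Pfkm and Pfkp, the aldolases Aldoa and Aldoc, the pyruvate kinase Pkm, and the lactate dehydrogenase subunits Ldha and Ldhb. They were chosen by name, and all 10 were found by their Ensembl identifier among the 25006 identifiers counted in each mouse. Of these genes, 9 were among the 12390 that passed the filter on low counts, and Hk2 did not pass it. The questions were which isoenzyme of each step carried the most mRNA within a mouse, and whether control and MCU-KO mice differed.

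Glycolysis breaks glucose down to pyruvate in the cytosol and yields ATP without mitochondria. Several of its steps can be carried out by more than one gene product, and the isoenzymes differ in their regulation, in their affinity for substrate and in the cell types that use them. Neurons are usually described as relying on Hk1, on Aldoc less than astrocytes do, and on an H type lactate dehydrogenase subunit, encoded by Ldhb, next to the M type subunit encoded by Ldha.

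Messenger RNA was collected from the substantia nigra of 8 control and 8 MCU-KO mice with the RiboTag method, in which tagged ribosomes are pulled down together with the mRNA that they carry, and each mouse gave 1 library. Control mice were DAT-Cre+/-, with no floxed Mcu allele named in the sources used here, and MCU-KO mice were DAT-Cre+/- MCU fl/fl, so that Cre, expressed from the dopamine transporter locus, removes Mcu, the pore subunit of the mitochondrial calcium uniporter, from cells that express this transporter. Both groups carried Cre, both were at postnatal day 45, and both had received an adeno-associated virus that encodes, in a Cre-dependent form, the tagged ribosomal protein Rpl22l1 and the red fluorescent protein tdTomato, 30 days before the tissue was dissected. Controls lacking Cre, or carrying the floxed allele without Cre, were not part of these data.

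Library totals ran from 14129527 to 22016362 counts on genes, so that 3 counts, taken as the floor of detection, corresponded to between 0.136 and 0.212 CPM, the count scaled to the library total. This floor covers counting error only. Mcu, which the labels of the MCU-KO mice give as deleted, had between 120.3 and 828 normalized counts in control mice and between 5.82 and 410.1 in MCU-KO mice, and the groups overlapped. Its mean was 454 in control and 199.9 in MCU-KO mice, and its median 401 and 246. The paper also checked the deletion by quantitative PCR on RiboTag mRNA, which is not part of these data. The 10 markers of dopaminergic neurons, Th and Slc6a3 among them, summed to between 13944 and 17608 CPM in control mice and between 12301 and 19825 CPM in MCU-KO mice. Markers of other cell types were present as well. The 10 astrocyte markers summed to between 486 and 948 CPM in control mice and between 566 and 1187 CPM in MCU-KO mice, the 10 oligodendrocyte markers to between 2898 and 5826 CPM and between 3465 and 6886 CPM, and the 9 microglia markers to between 66.4 and 249.7 CPM and between 67.7 and 423 CPM. None of these markers of glia was at 0 in all mice. For such bulk samples, fewer cells of a type and less RNA per cell cannot be told apart.

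The members spanned a wide range of levels, which are given here as normalized counts (counts divided by a size factor per library) per kb of annotated exon. In control mice the order of the means ran from Ldhb, with 26593 ± 2503 normalized counts per kb (SD, n = 8 mice), and Aldoa, with 21201 ± 1862 (SD, n = 8), through Pkm, with 5389 ± 609 (SD, n = 8), and Aldoc, with 3218 ± 580.3 (SD, n = 8), to Ldha and Pfkm, with 1924 ± 298 (SD, n = 8) and 1700.0 ± 166 (SD, n = 8). Hk1, Pfkl and Pfkp followed, with 434 ± 91.4 (SD, n = 8), 376 ± 125 (SD, n = 8) and 342 ± 79.4 (SD, n = 8) normalized counts per kb, and Hk2 came last with 1.89 ± 3.16 (SD, n = 8). For comparison, the median of all tested genes in control mice was 106 normalized counts per kb and their 90th percentile was 1023. Ldhb thus lay above 99.9% of the tested genes per kb, Aldoa above 99.8%, Pkm above 98.3% and Pfkp above 75.3%. The order of the leading pair rests on the merged exon length, 1570 bases for Ldhb and 2911 for Aldoa. With the longest transcript, 1304 and 1549 bases, Aldoa exceeded Ldhb in 8 of 8 control mice, with a log2 ratio of Ldhb to Aldoa of −0.32, and in 8 of 8 MCU-KO mice, with −0.35 (adjusted p = 0.0117 each, exact sign-flip permutation test).

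Neighbours in this order were compared within each mouse by an exact sign-flip permutation test (two-sided), adjusted over the 9 neighbouring pairs of a genotype. Since the order was read from the same means, these tests say only which neighbours stood apart from one another. In control mice 6 of the 9 neighbouring pairs kept the same order in 8 of 8 mice (exact sign-flip adjusted p = 0.0117 for each). The other 3 pairs did not differ beyond their spread, namely Ldha and Pfkm (adjusted p = 0.211 in the exact test), Hk1 and Pfkl (0.211), and Pfkl and Pfkp (0.461). In MCU-KO mice Ldha lay above Pfkm in 8 of 8 mice (exact sign-flip adjusted p = 0.0117), while Pfkl and Hk1 (adjusted p = 0.820 in the exact test) and Hk1 and Pfkp (0.0791) did not differ beyond their spread. With the length of the longest transcript, 8 of the 18 comparisons of neighbours in both genotypes changed in direction or call, the leading pair and Aldoc and Ldha among them, so the order holds for the merged exon length alone.

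**Figure D1:**
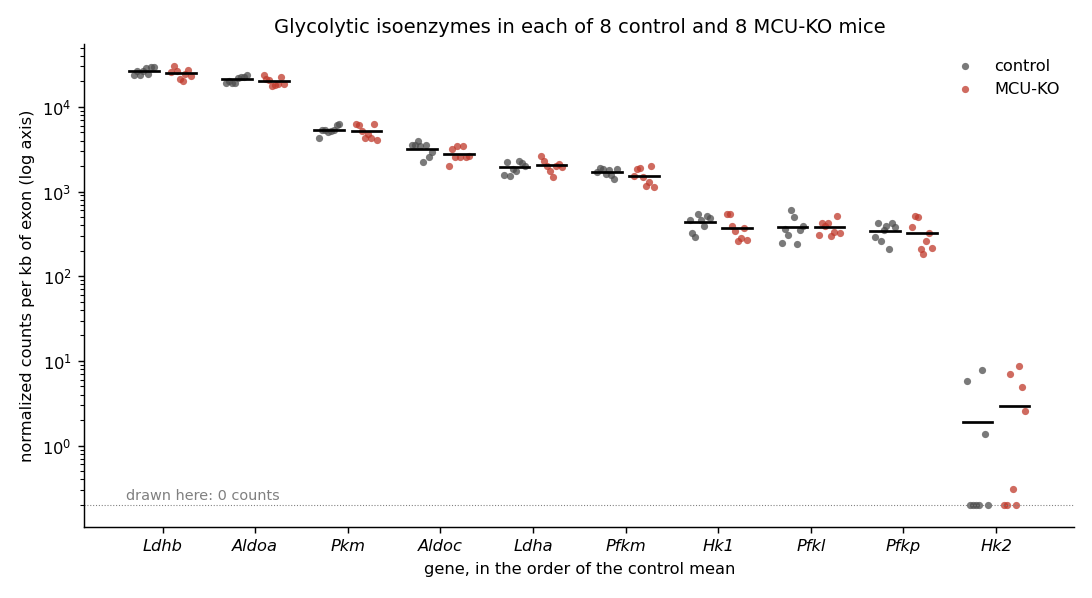
Normalized counts per kb of exon of the 10 genes (log axis) in each of 8 control mice (grey) and 8 MCU-KO mice (red), with the group mean as a black bar. Ldhb and Aldoa are the highest, Hk2 is at 0 counts in 5 control and 3 MCU-KO mice, and the genotypes overlap for each gene.

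Hexokinase traps glucose in the cell as glucose 6-phosphate. Hk1 (ENSMUSG00000037012, chromosome 10, 62268855 to 62379908, minus strand of GRCm38) encodes the isoenzyme that most tissues, brain included, express. In control mice it had between 2453 and 4656 normalized counts, with a median of 3893, and in MCU-KO mice between 2238 and 4679, with a median of 3045. The lowest 3 MCU-KO mice lay below the lowest control mouse and 1 MCU-KO mouse lay above the highest, so the groups overlapped at both ends. Hk2 (ENSMUSG00000000628, chromosome 6, 82725025 to 82774454, minus strand), the isoenzyme of muscle and fat that insulin and hypoxia induce, was at 0 counts in 5 of 8 control mice and 3 of 8 MCU-KO mice. The other control mice had 36, 46 and 8 counts of Hk2, and the other MCU-KO mice had 46, 2, 58, 30 and 11. Mice without a count and mice with 46 counts or more occurred in both genotypes.

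Hk1 exceeded Hk2 in all 16 mice. Among mice with more than 3 counts of Hk2, Hk1 was between 49.9 and 377-fold higher per kb in 3 control mice and between 32.4 and 104-fold higher in 4 MCU-KO mice. Against the floor of 3 counts per library, it was at least 631 to 1247-fold higher per kb in the 5 control mice without a count of Hk2, and at least 538 to 1135-fold higher in the 3 MCU-KO mice without one. These ratios take the merged exon length, and with the longest transcript the mean log2 ratio moved from 9.56 to 10.45 in control mice and from 8.37 to 9.26 in MCU-KO mice, with the pseudocount in place. The log2 ratio was above 0 in 8 of 8 mice of each genotype (p = 0.0078 by exact permutation of the signs, which is two-sided and can go no lower with 8 mice, and 0.0094 after Benjamini-Hochberg adjustment over 6 pairs of isoenzymes). Of all hexokinase counts per kb of these 2 genes, Hk1 made up 99.6% ± 0.757 (SD, n = 8) in control mice and 99.1% ± 1.10 (SD, n = 8) in MCU-KO mice. Hk3, another hexokinase gene, was at 0 in 8 of 8 control mice and in 3 of 8 MCU-KO mice. Hk3 was named after these values were seen, and its difference between genotypes was not tested.

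The promoter of Hk2 is shown because the gene was near its floor, with letters of the hypoxia response core in capitals. The window holds 250 bases before and 50 bases after the RefSeq start site (GRCm38.p6, chr6:82774405-82774704, minus strand, printed 5′ to 3′ along the gene). The letters ACGTG were searched on both strands, and so was the variant that begins with G in place of A, which reads GCGTG, and each stretch of capitals is 1 match or several that overlap.
Hk2: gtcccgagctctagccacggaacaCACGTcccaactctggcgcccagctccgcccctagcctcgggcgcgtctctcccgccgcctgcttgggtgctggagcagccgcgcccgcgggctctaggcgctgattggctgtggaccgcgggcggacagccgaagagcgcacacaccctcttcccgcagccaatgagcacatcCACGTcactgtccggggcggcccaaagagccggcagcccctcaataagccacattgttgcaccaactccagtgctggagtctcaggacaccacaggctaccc
The window of Hk2 held 2 such stretches, 25 CpG and 3 copies of the GC box GGGCGG. At least 1 of these motifs occurred in 43.8% of all 32851 RefSeq windows of this length and in 15 of the 19 windows of the 10 genes. CpG numbered a median of 7 over all windows, and a match is a description of the letters alone.

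Phosphofructokinase commits hexose phosphate to glycolysis and is inhibited by ATP. Its active form is a tetramer that can mix muscle, liver and platelet type subunits. Pfkm (ENSMUSG00000033065, chromosome 15, 98092589 to 98132451, plus strand), the muscle type, had between 4663 and 6294 normalized counts in control mice, with a median of 5829, and between 3826 and 6686 in MCU-KO mice, with a median of 5035. Pfkl (ENSMUSG00000020277, chromosome 10, 77986947 to 78010083, minus strand), the liver type, had between 1611 and 4048 in control mice, with a median of 2399.7, and between 1996 and 3408 in MCU-KO mice, with a median of 2406. For Pfkl the MCU-KO values lay inside the range of the control values. Pfkp (ENSMUSG00000021196, chromosome 13, 6579768 to 6648777, minus strand), the platelet type, had between 2834 and 5719 normalized counts in control mice, with a median of 4873, and between 2453 and 6875 in MCU-KO mice, with a median of 3940. The coefficient of variation of Pfkp was 40.4% in MCU-KO mice and 23.2% in control mice. That of Pfkm was 21.7% and 9.74%, and that of Pfkl 19.8% and 33.3%. For tested genes with a control mean of at least 1000, the median in control mice was 21.6%.

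Per kb, Pfkm was the main phosphofructokinase in each mouse. It exceeded Pfkl by a log2 ratio of 2.23 ± 0.48 (SD, n = 8) in control mice and 2.02 ± 0.19 (SD, n = 8) in MCU-KO mice, or 4.71-fold and 4.05-fold, and 3.05-fold and 2.63-fold with the length of the longest transcript. Pfkp lay below Pfkm by a similar distance, with a log2 ratio of Pfkp to Pfkm of −2.35 ± 0.39 (SD, n = 8) in control mice and −2.31 ± 0.37 (SD, n = 8) in MCU-KO mice. Both orders held in 8 of 8 mice of each genotype (adjusted p = 0.0094 each, exact sign-flip permutation test). The log2 ratio of Pfkp to Pfkl was −0.11 ± 0.37 (SD, n = 8) in control mice and −0.30 ± 0.54 (SD, n = 8) in MCU-KO mice, below 0 in 5 of 8 mice of each genotype, and was not distinguished from 0 (adjusted p = 0.461 and 0.156 in the exact sign-flip permutation test). As shares of the step, Pfkm made up 70.5% ± 5.77 (SD, n = 8) in control mice and 68.7% ± 1.56 (SD, n = 8) in MCU-KO mice, Pfkl 15.4% ± 4.195 (SD, n = 8) and 17.1% ± 2.34 (SD, n = 8), and Pfkp 14.1% ± 2.91 (SD, n = 8) and 14.2% ± 3.40 (SD, n = 8).

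These shares depend on the lengths used, because the annotated exons of Pfkp span 13401 bases, those of Pfkl 6675 and those of Pfkm 3340. When counts were not divided by length, Pfkm made up 45.1%, Pfkp 35.6% and Pfkl 19.4% of the step in control mice, and Pfkp then exceeded Pfkl in read number by a log2 ratio of 0.89 (adjusted p = 0.0094, exact sign-flip permutation test), while Pfkm exceeded Pfkp by 1.27-fold. That last order did not hold in each mouse. Pfkp had more normalized counts than Pfkm in control mouse 7 (5719 and 4663). The same was so in MCU-KO mice 1 (5167 and 5085), 2 (6875 and 6126) and 3 (6775 and 6281). Exons of Pfkp also overlap those of Pitrm1 on the opposite strand over 748 bases, 5.58% of its exon length, and since the sources used here do not give whether strand was used in counting, reads there may belong to either gene. Exons of Pfkm overlap those of Gm26513, a gene that was not counted, on the same strand over 341 bases. Of the stretches of 50 bases in Pfkm transcripts, 8.83% also occur in Gm26513.

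**Figure D2:**
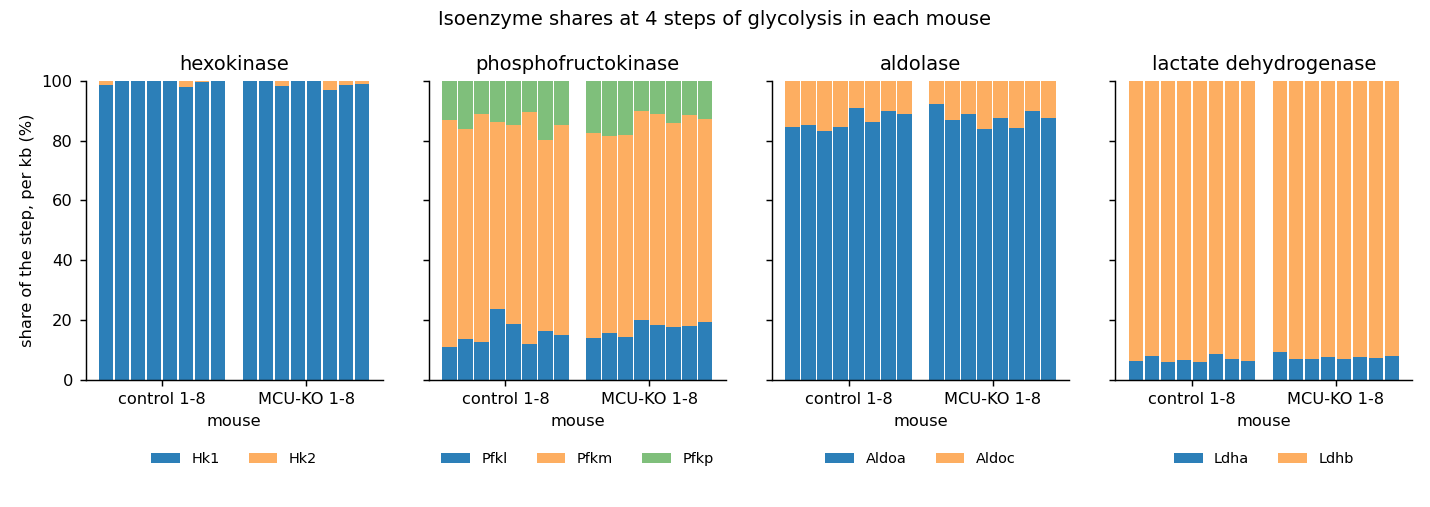
Share of each isoenzyme in the summed normalized counts per kb of its step (%, stacked to 100), for each of 8 control and 8 MCU-KO mice, at the hexokinase, phosphofructokinase, aldolase and lactate dehydrogenase steps. Hk1, Pfkm, Aldoa and Ldhb hold the main share in each mouse of both genotypes.

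Aldolase splits fructose 1,6-bisphosphate into its triose phosphates. Aldoa (ENSMUSG00000030695, chromosome 7, 126795234 to 126800751, minus strand), the muscle type isoenzyme that most tissues express, had between 55642 and 69095 normalized counts in control mice, with a median of 61849, and between 51908 and 69561 in MCU-KO mice, with a median of 57053. The lowest 4 MCU-KO mice lay below the lowest control mouse and 1 lay above the highest control mouse. Aldoc (ENSMUSG00000017390, chromosome 11, 78322968 to 78327781, plus strand), the brain type isoenzyme, which is abundant in astrocytes and Purkinje cells, had between 7244 and 12730 in control mice, with a median of 11432, and between 6612 and 11270 in MCU-KO mice, with a median of 8415. For Aldoc, 1 MCU-KO mouse lay below the range of the control mice and none above it.

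Per kb, Aldoa exceeded Aldoc by a log2 ratio of 2.74 ± 0.37 (SD, n = 8) in control mice and 2.87 ± 0.39 (SD, n = 8) in MCU-KO mice, or 6.67-fold and 7.30-fold, in 8 of 8 mice of each genotype (adjusted p = 0.0094 each, exact sign-flip permutation test). With the length of the longest transcript the folds were 10.7 and 11.7. Aldoa made up 86.7% ± 2.82 (SD, n = 8) of the step in control mice and 87.7% ± 2.78 (SD, n = 8) in MCU-KO mice. Of the stretches of 50 bases in Aldoa transcripts, 6.43% also occur in other genes, with 2.98% in Aldoart1, a processed copy, whereas those of Aldoc occur in no other gene.

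Pyruvate kinase makes pyruvate and ATP. Pkm (ENSMUSG00000032294, chromosome 9, 59656368 to 59679375, plus strand) yields the M1 and M2 enzymes by a choice between alternative exons, which counts per gene do not resolve. It had between 21710 and 31582 normalized counts in control mice, with a median of 26620, and between 20249 and 31631 in MCU-KO mice, with a median of 24910. The ranges of the genotypes nearly coincided, with 2 MCU-KO mice below the lowest control mouse and 1 above the highest. Pklr, the liver and red cell isoenzyme, was at 0 counts in all 16 mice. Of the stretches of 50 bases in Pkm transcripts, 25.8% also occur in genes that were not counted, so that reads from them may be lost or shared.

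Lactate dehydrogenase interconverts pyruvate and lactate as a tetramer of M subunits, encoded by Ldha, and H subunits, encoded by Ldhb. Ldhb (ENSMUSG00000030246, chromosome 6, 142490249 to 142507957, minus strand) had between 37324 and 46912 normalized counts in control mice, with a median of 41481, and between 31314 and 47764 in MCU-KO mice, with a median of 39303. Ldha (ENSMUSG00000063229, chromosome 7, 46841475 to 46855627, plus strand) had between 5066 and 7519 in control mice, with a median of 6340, and between 4868 and 8804 in MCU-KO mice, with a median of 6678. Per kb, the lowest Ldhb level of any mouse, 19945 normalized counts per kb, was above the highest Ldha level of any mouse, 2659.7.

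Per kb, the log2 ratio of Ldha to Ldhb was −3.80 ± 0.21 (SD, n = 8) in control mice and −3.61 ± 0.15 (SD, n = 8) in MCU-KO mice. Ldhb was thus 13.9-fold higher than Ldha in control mice and 12.3-fold higher in MCU-KO mice, in 8 of 8 mice of each genotype (adjusted p = 0.0094 each, exact sign-flip permutation test). With the length of the longest transcript these folds were 9.19 and 8.09, and without scaling by length they were 6.60 and 5.81. Ldhb made up 93.2% ± 0.959 (SD, n = 8) of the step in control mice and 92.4% ± 0.797 (SD, n = 8) in MCU-KO mice. Ldhc, the testis subunit, was at 0 counts in all 16 mice. Of the stretches of 50 bases in Ldhb transcripts, 20.99% also occur in Gm5514, a gene that was not counted, and 9.26% of those of Ldha occur in other genes.

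The promoters of Ldha and Ldhb are shown side by side because Ldhb exceeded Ldha in each mouse under each choice of length. The RefSeq windows lie at chr7:46845554-46845853 (plus strand) for Ldha and at chr6:142507908-142508207 (minus strand) for Ldhb, on GRCm38.p6, with matches to the same letters on either strand in capitals. For Ldha, which has 2 annotated windows, the one with the larger number of GENCODE transcript starts within 50 bases is printed.
Ldha: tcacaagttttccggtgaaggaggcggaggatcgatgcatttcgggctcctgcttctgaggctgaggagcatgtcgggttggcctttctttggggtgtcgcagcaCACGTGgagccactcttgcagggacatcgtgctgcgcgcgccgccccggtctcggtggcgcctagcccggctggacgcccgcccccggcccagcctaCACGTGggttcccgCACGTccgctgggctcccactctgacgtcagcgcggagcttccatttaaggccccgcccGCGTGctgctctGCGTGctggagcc
Ldhb: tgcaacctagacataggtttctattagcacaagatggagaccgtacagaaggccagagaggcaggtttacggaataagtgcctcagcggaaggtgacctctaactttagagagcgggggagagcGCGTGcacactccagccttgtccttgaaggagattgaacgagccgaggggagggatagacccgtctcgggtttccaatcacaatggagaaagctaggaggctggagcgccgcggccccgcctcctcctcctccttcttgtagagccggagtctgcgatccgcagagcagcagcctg
The window of Ldha held 5 stretches in capitals, 2 of which are the palindrome CACGTG that contains ACGTG on both strands, and 30 CpG. The window of Ldhb held 1 stretch and 17 CpG. The letters ACGTG occurred in 19.6% of all windows, and the variant that starts with G in 32.4%. The hypoxia-inducible factors are known to bind such letters in the promoter of Ldha, and nothing in these data measures their binding.

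**Figure D3:**
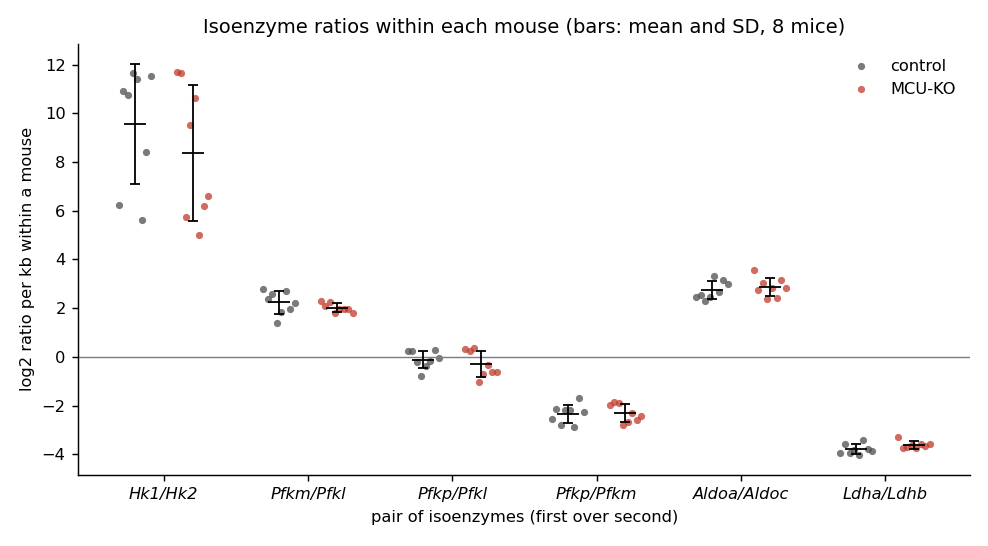
Log2 ratio per kb of 6 pairs of isoenzymes (first over second) within each of 8 control mice (grey) and 8 MCU-KO mice (red), with mean and SD. The ratios lie on one side of 0 in each mouse for 5 pairs, while Pfkp to Pfkl spans 0, and the spread of Hk1 to Hk2 follows the mice without a count of Hk2.

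Between genotypes, no member passed the test. Of the 9 members tested, 0 had an adjusted p under 0.05 and 0 had an unadjusted p under 0.05 (quasi-likelihood F test of edgeR, Benjamini-Hochberg adjustment over all genes), where 0.178% and 4.41% of all genes tested did so. With DESeq2, 0 of 10 members had an adjusted p under 0.05, where 0.557% of its genes did. The normalized counts of the genotypes overlapped for all 10 members, and they did not overlap in 0.258% of the genes tested. The members' median log2 fold change was −0.07 and that of all genes was 0.00. In MCU-KO mice 7 members were lower and 2 higher, beside 6149 of all genes tested lower and 6241 higher.

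Because a p that misses the threshold does not show equality, the intervals are given. The widest differences were those of Hk1, whose log2 fold change was −0.21 (standard error 0.17, 95% interval −0.56 to 0.14), and of Aldoc, with −0.21 (0.12, −0.46 to 0.05). Pfkm had −0.14 (0.12, −0.39 to 0.11) and Ldhb −0.10 (0.08, −0.27 to 0.07). Near 0 were Aldoa with −0.07 (0.07, −0.23 to 0.08), Pfkp with −0.07 (0.21, −0.50 to 0.36), Pkm with −0.06 (0.10, −0.27 to 0.15), Ldha with 0.08 (0.12, −0.16 to 0.32) and Pfkl with 0.01 (0.18, −0.36 to 0.38). The intervals thus lay between −0.56 and 0.38 for the 9 members, and the narrowest, that of Aldoa, belonged to the member with the most counts. Hk2, outside the fit, had a mean of 11.3 normalized counts in control mice and 17.6 in MCU-KO mice. On the log2 scale with a pseudocount of 1, the means of Hk2 differed by 0.96 (MCU-KO minus control, p = 0.432, exact permutation test over all splits of the mice into 8 and 8). That difference depends on the pseudocount given to mice without a count.

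**Figure D4:**
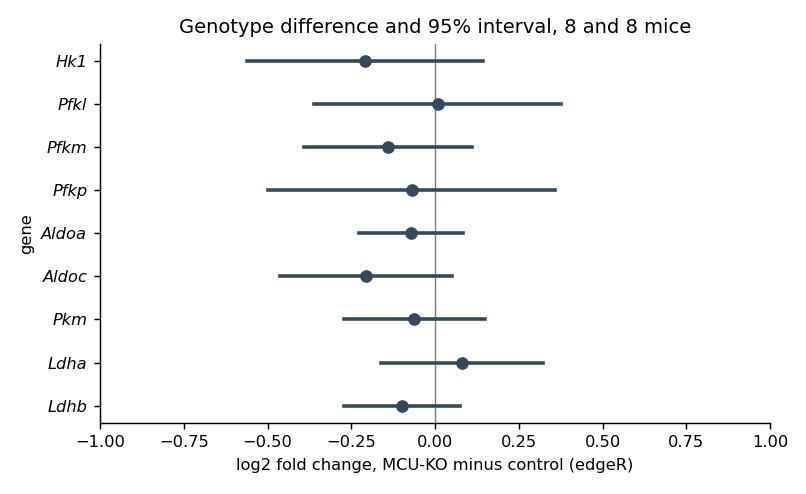
Log2 fold change (MCU-KO minus control, edgeR) of the 9 members tested, with its 95% interval as a line, from 8 control and 8 MCU-KO mice. Each interval includes 0, and the intervals span −0.56 to 0.38.

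Isoenzyme choice did not differ between the genotypes beyond the spread of the mice either. The difference of the log2 ratio (MCU-KO minus control) was 0.18 for Ldha to Ldhb (95% interval −0.02 to 0.38, p = 0.0671 by exact permutation of the mice between genotypes, 0.403 after adjustment over 6 pairs). It was −0.22 for Pfkm to Pfkl (−0.62 to 0.19), −0.18 for Pfkp to Pfkl (−0.68 to 0.32), 0.03 for Pfkp to Pfkm (−0.38 to 0.44) and 0.13 for Aldoa to Aldoc (−0.28 to 0.54), with adjusted p between 0.601 and 0.869 in the exact permutation test. For Hk1 to Hk2 the interval was wide, from −4.02 to 1.64 around −1.19, and this value depends on the pseudocount given to mice without a count of Hk2. Summed over isoenzymes per kb, the log2 difference ran from −0.23 for hexokinase to −0.07 for pyruvate kinase, and no step passed the test (adjusted p of at least 0.385, exact permutation test).

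The other enzymes of the pathway were counted as context. Of 16 further genes of glycolysis, 11 were tested, 0 were called higher and 1 was called lower, where 0.178% of all genes tested were called. That gene was Eno1, an enolase gene that shares sequence with a near-identical copy, with 17130 ± 1888 normalized counts (SD, n = 8) in control mice and 9315 ± 1585 (SD, n = 8) in MCU-KO mice, while its isoenzyme Eno2 had 14067 ± 1201 (SD, n = 8) and 13359 ± 1869 (SD, n = 8). Gapdh, which oxidizes glyceraldehyde 3-phosphate, had a log2 fold change of −0.18 (unadjusted p = 0.0644, edgeR), and Tpi1, which interconverts the trioses, one of −0.15. The median of these 11 genes was −0.14, with 9 lower and 2 higher, beside the 7 of 9 members that were lower. Among all 12390 genes tested, 6149 were lower and 6241 higher. With the astrocyte marker level as a covariate, 4 of the 9 members were higher. Of the regulators of phosphofructokinase, 0 of 4 tested were called, with Pfkfb3, which makes its activator fructose 2,6-bisphosphate, at 414 ± 127 normalized counts (SD, n = 8) in control mice and 494 ± 152 (SD, n = 8) in MCU-KO mice, and Tigar, which breaks it down, at 1881 ± 304 (SD, n = 8) and 1717 ± 330.3 (SD, n = 8).

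Genes at the entry and exit of the pathway were likewise not called in either direction. Of 7 transporters of glucose and monocarboxylates, 6 were tested and 0 passed. Slc2a3, the neuronal glucose transporter, had 1635 ± 905 normalized counts (SD, n = 8) in control mice and 1734 ± 357 (SD, n = 8) in MCU-KO mice, and Slc2a1, the transporter of endothelium and glia, 511 ± 282 (SD, n = 8) and 576 ± 274 (SD, n = 8). Bsg, the partner protein of the monocarboxylate transporters, was at 24751 ± 1806 (SD, n = 8) and 23396 ± 2060 (SD, n = 8). Of 13 tested genes of the pentose phosphate pathway and glycogen, 0 were called. The smallest p belonged to Tkt, a transketolase of the nonoxidative branch, with a log2 fold change of −0.20 (unadjusted p = 0.0457, adjusted p = 1.00, edgeR with Benjamini-Hochberg adjustment), and Taldo1, its neighbour in the branch, had −0.04.

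Several pairs of members moved together from mouse to mouse. Over the 16 mice, 29 of the 36 pairs of tested members had a positive Pearson's r of log2 CPM, as did 49.6% of all pairs of tested genes. The sign was positive in both genotypes for 21 of the 36 pairs (24.8% of all gene pairs), and Hk1 and Pfkm, for example, had r = −0.60 within control and 0.70 within MCU-KO mice. Within control mice 22 of the 36 pairs were positive and within MCU-KO mice 29, where 49.5% and 49.6% of all gene pairs were. Of the 36, 12 pairs passed an adjusted p of 0.05 by r and 8 by Spearman's rho (permutation tests with 100000 resamples). The share of all gene pairs that would pass these tests was not computed. Pfkp and Ldhb went together with r = 0.88 and rho = 0.84 (adjusted permutation p = 0.0007 and 0.0020), with r = 0.82 within control mice, 0.91 within MCU-KO mice and 0.86 without the 2 mice farthest from the median. Aldoa and Pkm had r = 0.87 and rho = 0.87 (adjusted permutation p = 0.0007 and 0.0018), with 0.77 and 0.92 within genotypes and 0.87 without the 2 mice farthest out. Aldoc went the other way, with negative r to Aldoa (−0.41) and Pkm (−0.31), neither of which passed (adjusted permutation p = 0.181 and 0.325). MCU-KO mouse 1, for example, had the highest Aldoa, Pkm, Hk1 and Ldha normalized counts of its genotype and the lowest normalized count of Aldoc.

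The astrocyte marker level moved with some of these genes. It differed between genotypes by 0.44 on the log2 scale, with means of 4.90 in control and 5.35 in MCU-KO mice (p = 0.109, exact permutation test), and 8 of the 10 markers were higher in MCU-KO mice with 0 called. The difference was 0.50 for microglia, 0.16 for oligodendrocyte and −0.46 for endothelium markers (p = 0.336, 0.466 and 0.409, exact permutation test). Of the glial levels, only that of astrocytes was set against the members, so whether a link is particular to astrocytes was not tested. The share of all tested genes that would pass against a marker level was not computed, so whether a link is particular to the members was not tested either. Aldoa was lower in mice with more astrocyte marker signal, with r = −0.79 and rho = −0.74 over 16 mice (adjusted permutation p = 0.0027 and 0.0129 over 10 members), r = −0.80 within control mice, −0.76 within MCU-KO mice and −0.75 without the 2 mice farthest from the median. Pkm and Ldhb had r = −0.59 and −0.55, which did not pass (adjusted permutation p = 0.0842 and 0.0957), while their rho of −0.62 and −0.65 did (0.0371 each, permutation). Without the 2 mice farthest out, r was −0.61 for Pkm and −0.63 for Ldhb. It was −0.26 and −0.35 within control mice, and −0.82 and −0.60 within MCU-KO mice. Aldoc had a positive r of 0.29 (0.46 within control and 0.60 within MCU-KO mice), which did not pass (adjusted permutation p = 0.355).

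With the markers summed as CPM, where the abundant markers weigh most, Hk1, Pfkp, Aldoa, Pkm and Ldhb all passed, with r of −0.65, −0.74, −0.82, −0.82 and −0.83 (adjusted permutation p between 0.0007 and 0.0127). Here too the share of all tested genes that would pass is not known. The dopaminergic marker level went the other way, with r = 0.76 for Aldoa and 0.73 for Pkm (adjusted permutation p = 0.0045 and 0.0054). Within control mice these were 0.66 and 0.31, and within MCU-KO mice 0.82 and 0.88. With the astrocyte marker level as a covariate in edgeR, Aldoc had a log2 fold change of −0.32 (unadjusted p = 0.0154, adjusted p = 1.00 with Benjamini-Hochberg adjustment) and Aldoa one of 0.02. The part of other cells' RNA in the members' levels was not tested.

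**Figure D5:**
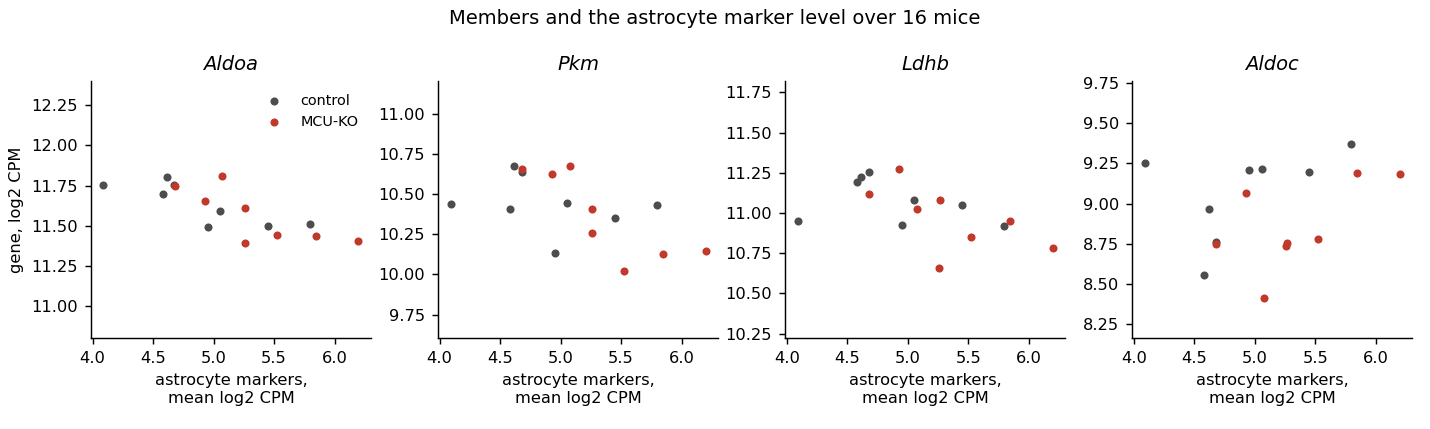
Log2 CPM of Aldoa, Pkm, Ldhb and Aldoc (vertical axes, each spanning the same range) against the mean log2 CPM of 10 astrocyte markers in 8 control (grey) and 8 MCU-KO mice (red). Aldoa falls as the marker level rises (r = −0.79), and Aldoc does not (r = 0.29).

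The genes most alike to each member were sought among 10609 tested genes with a mean of at least 100 normalized counts, by Pearson's r of log2 CPM over the 16 mice, given here as a description. For Ldhb they were Vcp, an ATPase of protein quality control (r = 0.90), and Hspa8, a constitutive chaperone (0.90), and Hspa8 also led for Aldoa (0.90). Oxct1, which activates ketone bodies in mitochondria, came second for Aldoa (0.88) and first for Pkm (0.93), followed by Cend1 (0.89). Pfkp was most alike to Ahsa1, an activator of the chaperone Hsp90 (0.88), and then to Ldhb itself. Hk1 was most alike to Rpf2 and Rgmb (0.87 and 0.85), Pfkl to Abhd8 and Sdr39u1 (0.80 and 0.77), Pfkm to Arhgef11 and Tubb4a (0.81 and 0.79), Aldoc to Epb41l3 and Slc16a9 (0.82 and 0.79), and Ldha to Ddx56 and Gpd1l (0.84 each). The points share their libraries, and r of this size was picked as the highest among all genes compared.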

How the data were processed

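Reads were trimmed (cutadapt in the study's methods, Trim Galore in the submitters' processing notes), aligned to mm10 with STAR and counted by htseq-count on Ensembl genes. The authors deposited raw counts per gene, 1 file per mouse, without normalization. Tool versions, the annotation release and the use of strand are not given in the sources used here. The study names 1 more MCU-KO mouse than the 8 analysed here.

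Symbols, exon lengths and coordinates came from GENCODE M21 (GRCm38), with 24942 of 25006 identifiers matched. Normalized counts are counts divided by DESeq2 size factors, and the length is that of all annotated exons merged. Genotypes were compared in edgeR 4.0.16 (filterByExpr, TMM, quasi-likelihood F test, adjusted p under 0.05 over 12390 genes), with DESeq2 1.42.0 and limma 3.58.1 as alternatives, in R 4.3.3. Ratios used a pseudocount of 1, a sign-flip test over 256 patterns and a two-sided permutation test over all splits of 8 and 8 mice, in Python 3.11.15. Log2 CPM used a prior count of 2. On simulated counts of this comparison (12390 genes), edgeR recovered 11.9% of 67 genes changed 1.5-fold, 41.8% of 67 changed 2-fold and 66.7% of 66 changed 4-fold, with 3 false calls. Recovery was not worked out for genes at the level of the members, whose standard errors ran from 0.07 to 0.21. Sequences are RefSeq's, and all 10 members matched.

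The members, the marker lists and the 4 context lists were chosen with earlier results of these data known. Besides all members, the genes named are, in each context list, those tested with an unadjusted p under 0.05 or else the 2 with the smallest p, the 2 with the highest mean, and the 2 genes most alike to each member. Genes listed at 0 or near it, and Eno2, were named after their values were seen. Some genes of the context lists are not reported here by name. Mice are separate animals, and 1 library was made from each. Mouse numbers occur in both genotypes but name different animals, so they were not used to pair mice.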

Additional observations from a re-analysis of the deposited data

Results flagged for a closer look

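Among the 32 groups of 8 mice examined (the normalized counts of the 10 members and the ratios of 6 pairs, in each genotype), 1 held a mouse far from the others, where chance gives about 1 in 20, or 1.6 here. In MCU-KO mouse 1 the log2 ratio of Ldha to Ldhb per kb was −3.27, the highest of its genotype, and its gap to the next mouse was 0.61 of the range of the group, above Dixon's critical value of 0.526 for 8 mice. This mouse had 8804 normalized counts of Ldha, the highest of all mice, and 40375 of Ldhb, inside the range of the control mice.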

How the results depend on the processing

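The count of members called stayed at 0 under DESeq2, limma, other normalizations and filters, the replicate block, the astrocyte marker covariate and the omission of each mouse. The number of all genes called was 22 and moved to 90 with DESeq2 and to 14 with the replicate block. Same-numbered mice did not deviate together (correlations of −0.061 to 0.031), and the replicate block changed no call of a member or ratio, with a log2 fold change of −0.24 for Hk1 and −0.21 for Aldoc. Members at an unadjusted p under 0.05 numbered 1, Aldoc, with the astrocyte covariate and without control mouse 5 (log2 fold change −0.32 and −0.27), and 0 to 1 over all omissions.

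Without scaling by length, the log2 ratio of Pfkp to Pfkl was 0.894 in control and 0.710 in MCU-KO mice (adjusted p = 0.0094 and 0.0188, exact test), because longer genes then count for more, and that of Pfkp to Pfkm in MCU-KO mice was −0.310 and no longer passed (0.0703, exact test). With the astrocyte covariate the log2 fold changes turned to −0.0102 for Pfkl, 0.0484 for Pfkp, 0.0242 for Aldoa and 0.0339 for Pkm, and the cause was not tested. Leaving out each mouse gave −0.068 to 0.140 for Pfkl, −0.194 to 0.0193 for Pfkp, and −0.0473 to 0.122 for the genotype difference of the Pfkp to Pfkm ratio. The genotype difference of the Ldha to Ldhb ratio ran from 0.135 without MCU-KO mouse 1 (adjusted p = 0.376, exact permutation test) to 0.239 without control mouse 6 (0.0522, same test). The r with astrocyte markers turned to 0.210 for Hk2 and −0.203 for Pfkl with summed CPM, and to 0.162 and −0.298 without the 2 mice farthest from the median. With the longest transcript, the log2 ratio of neighbours in the order turned to −0.316 in control and −0.346 in MCU-KO mice for Ldhb to Aldoa, and in MCU-KO mice to −0.188 for Aldoc to Ldha and −0.115 for Pfkl to Hk1. Without length it turned to −0.565 and −0.594 for Ldhb to Aldoa, to −0.894 for Pfkl to Pfkp in control mice, and in MCU-KO mice to −0.313 for Pfkl to Hk1 and −0.397 for Hk1 to Pfkp. The ratios of isoenzymes kept their direction and call with the length of the longest transcript, with a pseudocount of 0.5, with CPM and without each mouse. Correlations among members, the dopaminergic marker level and the tests of neighbours in the order of levels, also with other lengths, were added after seeing the data. The spread of Hk2 over mice leaves its genotype difference unresolved.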
